A study of Homo sapiens with 17 samples.

Results

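The endoplasmic reticulum (ER) chaperones and the genes of ER-associated degradation were examined as a set of 39 genes, chosen by name for their place in protein folding, ER quality control and the sensing of unfolded protein, out of 60662 genes in the count table. All 39 identifiers were matched to a symbol, and all 39 had enough counts to be tested in each comparison. RNA was sequenced from Ishikawa cells, a line from a human endometrial adenocarcinoma that is used as a model of the endometrial epithelium, and each library is 1 culture of that 1 cancer line. The question was how progesterone (P4) changed the transcriptome within 24 h. All cultures were grown in medium with charcoal-stripped serum. Control cultures (n = 3) stayed in control medium. Nap only cultures (n = 2) received a vehicle that the labels call Nap and do not explain. Vehicle control cultures (n = 3) carry Nap EtOH in their titles and vehicle with 70% EtOH in their treatment label. The paper states both 70% and 10% EtOH, so that this is uncertain too. P4 cultures (n = 3) received Nap with progesterone, their labels do not mention ethanol, and the sources state both 1.0 mg/ml and 10 μg/ml, so that the dose is uncertain. The paper sets P4 against the vehicle control, and the labels do not settle whether P4 cultures also received ethanol. If they did not, the 2 groups differ in ethanol as well as in progesterone, and their comparison cannot tell these apart. A further 6 libraries with the protein PSAT1 in their names had contradictory labels and entered no comparison.

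Secreted and membrane proteins enter the ER through the SEC61 channel and fold there with the help of HSP70 and HSP90 chaperones, lectin chaperones that bind glycans, and disulfide isomerases. When unfolded protein gathers, the membrane sensors ERN1 (IRE1), ATF6 and EIF2AK3 (PERK) start the unfolded protein response, which raises chaperone genes and slows translation, while ER-associated degradation carries misfolded protein back to the cytosol for the proteasome. In the endometrium, progesterone turns the epithelium towards secretion, a task that depends on folding in the ER.

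Total counts were between 4999521 (vehicle control replicate 1) and 19704493 (control replicate 2). A gene with 3 counts stood at 0.574 CPM in the smallest library and 0.155 CPM in the largest, where CPM is the count scaled to library size with TMM factors, and such floors cover counting error only. The rRNA gene MT-RNR2 took 20.2% to 27.1% of the counts. Markers of an epithelial line were present (EPCAM at 172 to 215 CPM), MUC1 was low at 0.603 to 2.97 CPM, and 9 such markers summed to 1505 to 1796 CPM in the 8 libraries without P4 against 1272 to 1390 CPM in P4. PGR, the progesterone receptor, was at 102 to 116 CPM in control, 101 to 144 in Nap only, 50.0 to 61.8 in vehicle control and 18.4 to 27.6 in P4. Leukocyte markers summed to at most 1.85 CPM and endothelial markers to at most 1.54 CPM, in P4 to 0.382 to 0.431 and 0.172 to 0.382 CPM, with the endothelial marker CDH5 at 0 counts in all 11 libraries. Of the stromal markers, PDGFRB and DCN stayed at or under 6 counts, while COL1A1 (20.4 to 32.6 CPM) and COL3A1 (41.7 to 130.0 CPM) were detected, and the 5 stromal markers summed to 66.0 to 76.3 CPM in P4 and to 69.5 to 156 CPM in the rest. The part of these markers in the results below was not tested, and in bulk RNA fewer cells of a type and less RNA per cell cannot be told apart. P4 replicate 1 had the lowest level of the P4 cultures in 36 of the 39 genes, and the count without it is given below.

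Several of the genes are textbook targets of the unfolded protein response, and their promoters hold short elements that the response acts through. RefSeq promoter windows (250 bases before to 50 bases after the start, GRCh38.p14) were at hand for 36 of the 39 genes and were searched on both strands. The ER stress response element (ERSE) was searched as CCAAT, 9 bases, then CCACG. It was found in 8 of the 36 genes (22.2%) and in 25 of all 27305 genes with a window (0.0916%). The matches are shown because log2 fold changes of these genes in P4 against vehicle control ran from -0.59 (CRELD2) to 1.85 (HSPA5). Capitals mark the fixed letters.
HSPA5: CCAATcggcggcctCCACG
XBP1: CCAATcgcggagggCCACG
ERO1B: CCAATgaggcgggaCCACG
CANX: CCAATcttcacactCCACG
HSP90B1: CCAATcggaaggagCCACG
HSP90B1, second match: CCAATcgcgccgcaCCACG
PDIA6: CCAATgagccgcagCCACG
CALR: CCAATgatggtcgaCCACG
CRELD2: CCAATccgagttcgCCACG

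Each ERSE is written in the direction in which CCAAT comes first, which is the strand of the gene for HSPA5, XBP1, CANX, PDIA6 and the first match of HSP90B1, and the other strand for the rest. Of the 8 genes, HSPA5, XBP1, ERO1B and CANX rose under P4, CRELD2 fell, and HSP90B1, PDIA6 and CALR did not pass the test. Of all genes tested, 26.6% passed as higher and 26.5% as lower. The log2 fold changes of CANX (0.32) and HSP90B1 (0.21) were close, and HSP90B1 and PDIA6 passed without P4 replicate 1. The shorter ERSE-II, searched as ATTGG, 1 base, then CCACG, was found in 3 of 36 genes (8.33%) and in 19 of 27305 (0.0696%). HERPUD1 and SDF2L1 hold 1 match each and HYOU1 holds 2, and of these HERPUD1 and HYOU1 rose. The letters TGACGTGG (UPRE) were found in DNAJC10 and HYOU1 and in 253 genes in all (0.927%), in HYOU1 overlapping 1 of its ERSE-II matches. The letters TGATGNAA (CARE) were found in HERPUD1 and in 1217 genes in all (4.46%). A match is a description of letters and not of a bound site.

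The stretches before the starts of HSPA5 and HERPUD1 are shown, since these are a chaperone and a degradation gene that rose both in vehicle control against control and in P4 against vehicle control. For HSPA5 the stretch is chr9:125241344-125241453 on the minus strand, 110 bases that end just before the RefSeq start, with the ERSE 66 to 48 bases before it. For HERPUD1 it is chr16:56931952-56932047 on the plus strand, 96 bases that lie 190 to 95 bases before the RefSeq start. They end just before the GENCODE gene start at 56932048. The CARE letters (on the other strand) lie 176 to 169 bases and the ERSE-II 117 to 107 bases before the RefSeq start. Capitals mark the fixed letters of the matches.
HSPA5: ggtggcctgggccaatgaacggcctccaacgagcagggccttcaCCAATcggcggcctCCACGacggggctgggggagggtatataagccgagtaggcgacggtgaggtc
HERPUD1: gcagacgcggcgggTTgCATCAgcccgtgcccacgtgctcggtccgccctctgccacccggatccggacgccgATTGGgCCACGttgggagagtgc

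Under P4, 23 of the 39 genes rose and 3 fell against vehicle control, and 13 did not pass the test. Over all 16540 genes tested, 53% passed, 26.6% as higher and 26.5% as lower, so that a call alone was common. The test was edgeR's quasi-likelihood F test, the p-values were adjusted by the Benjamini-Hochberg method, and a gene passed below 0.05. The median log2 fold change of the 39 genes was 0.36, with a range from -0.59 to 3.27, beside a median of -0.01 over all genes tested. Of the 39 genes, 11 rose with a log2 fold change above 1, as did 5.34% of all genes tested, and none of the 39 fell by more than 0.59. The 3 P4 cultures lay apart from the 3 vehicle controls in 26 of the 39 genes, and in 60.3% of all genes. Summed over the 39 genes, the level was 7762 to 8422 CPM in the 8 libraries without P4, and 9574, 13319 and 11927 CPM in the P4 cultures. As a share of all counts these genes held 0.81% to 0.876% without P4 and 0.922%, 1.19% and 1.11% with it. Without P4 replicate 1, 32 genes rose, and without vehicle control replicate 2 or P4 replicate 3 the genes that fell numbered 1.

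**Figure D1:**
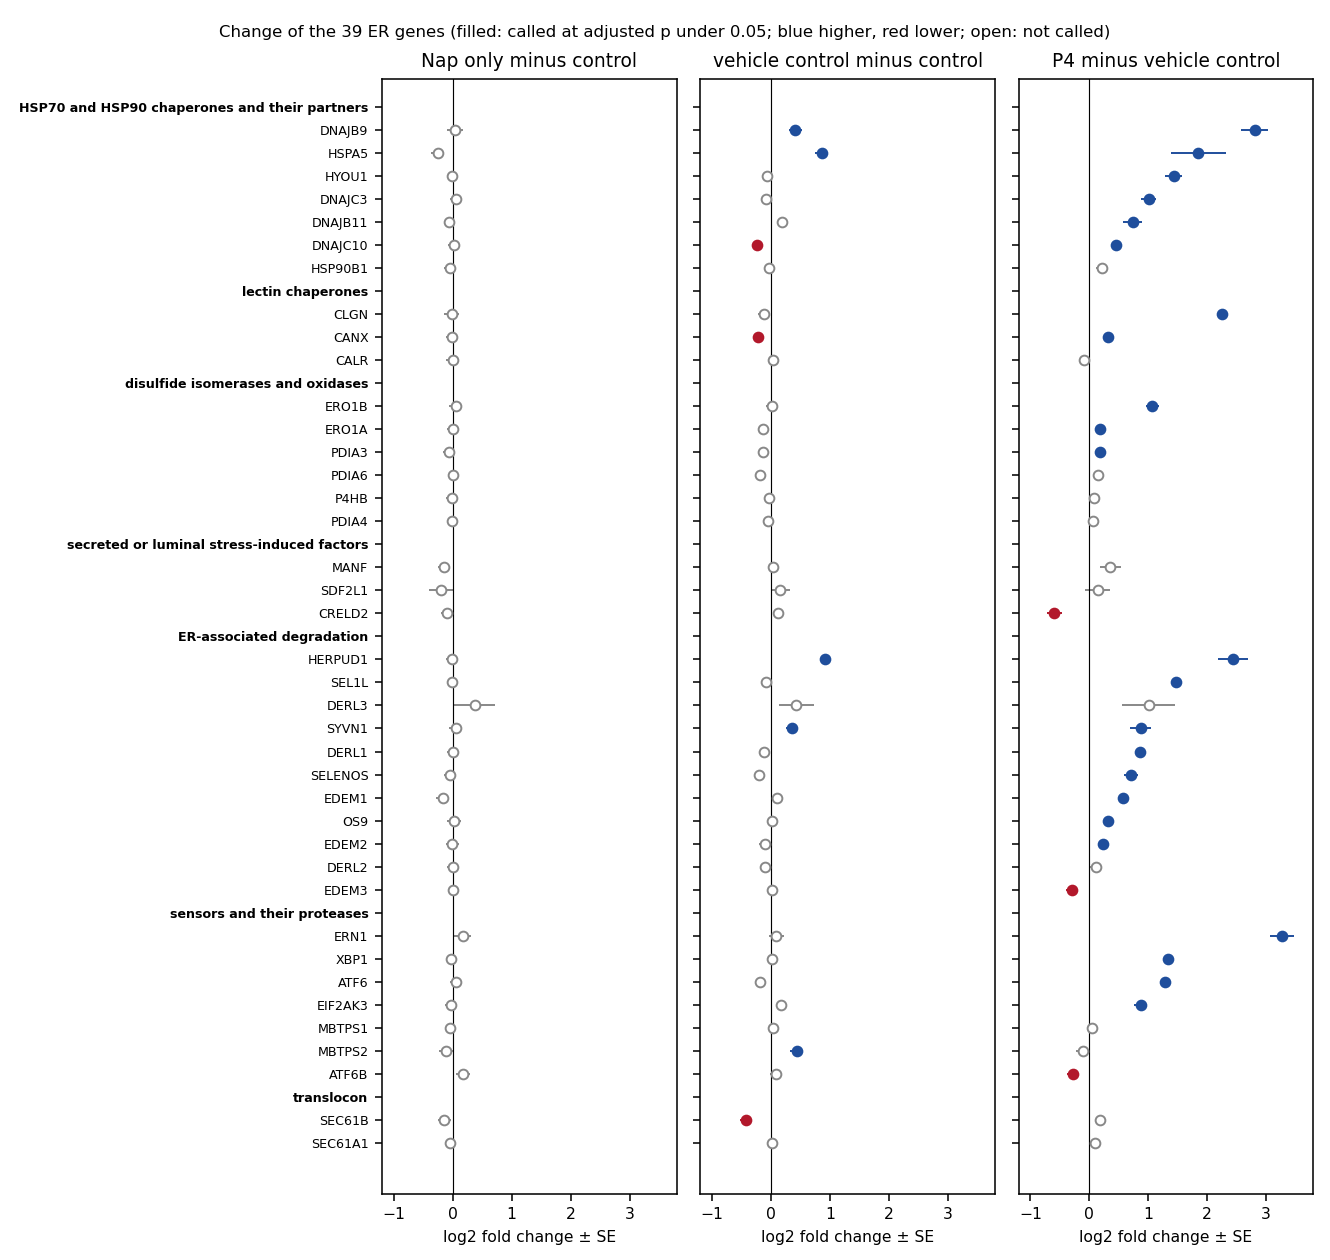
Log2 fold change with its standard error (x axis) for the 39 ER genes, grouped by role (y axis), in Nap only against control, vehicle control against control and P4 against vehicle control. Filled points passed the test and open points did not: no gene passed in Nap only, 8 in vehicle control and 26 in P4, where ERN1 stood highest at 3.27 and CRELD2 lowest at -0.59.

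Among the 7 HSP70 and HSP90 chaperones and their partners, 6 rose and 1 did not pass the test, with a median log2 fold change of 1.01. HSPA5 (BiP, the main HSP70 chaperone of the ER lumen, ENSG00000044574.8, chromosome 9 from 125234853 to 125241330) read 191, 247 and 250.0 CPM in vehicle control and 404, 1298 and 821 CPM in P4. The P4 cultures were all above the vehicle controls, and they differed among themselves by more than the vehicle controls did. The means were 229 ± 33.2 and 841 ± 447 CPM (SD, n = 3 each), which gave a log2 fold change of 1.85 (SE 0.47, adjusted p = 0.0259). This call is close to the threshold: the adjusted p was 0.0605 without P4 replicate 2, 0.063 without vehicle control replicate 2, 0.0642 without vehicle control replicate 3 and 0.0732 with no filter on low counts.

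DNAJB9 (ERdj4, a J-domain partner of HSPA5, chromosome 7 from 108569568 to 108574850) had the largest change of this group. It read 19.0, 18.3 and 19.3 CPM in vehicle control and 90.6, 173 and 137 CPM in P4, with no overlap. Its means were 18.9 ± 0.481 and 134 ± 41.5 CPM (SD, n = 3 each), with a log2 fold change of 2.81 (SE 0.23, adjusted p = 1.9e-05). HYOU1 (GRP170, a nucleotide exchange factor of HSPA5) went from 240.0, 265 and 274 CPM to 528, 866 and 736 CPM. All P4 cultures were again higher, and the log2 fold change was 1.43 (SE 0.15, adjusted p = 3.5e-05). The J-domain proteins DNAJC3, DNAJB11 and DNAJC10 rose by 1.01, 0.74 and 0.45 on the log2 scale. HSP90B1 (GRP94, the HSP90 chaperone of the ER) read 1329, 1444 and 1380 CPM in vehicle control and 1340, 1827 and 1688 CPM in P4. The groups overlapped through P4 replicate 1, and the log2 fold change of 0.21 (SE 0.09, adjusted p = 0.0792) did not pass the test. HSP90B1 passed as higher with no filter (adjusted p = 0.00979), with all 4 groups in the fit (adjusted p = 0.0399), with the replicate number as a block (adjusted p = 0.0299) and without P4 replicate 1.

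**Figure D2:**
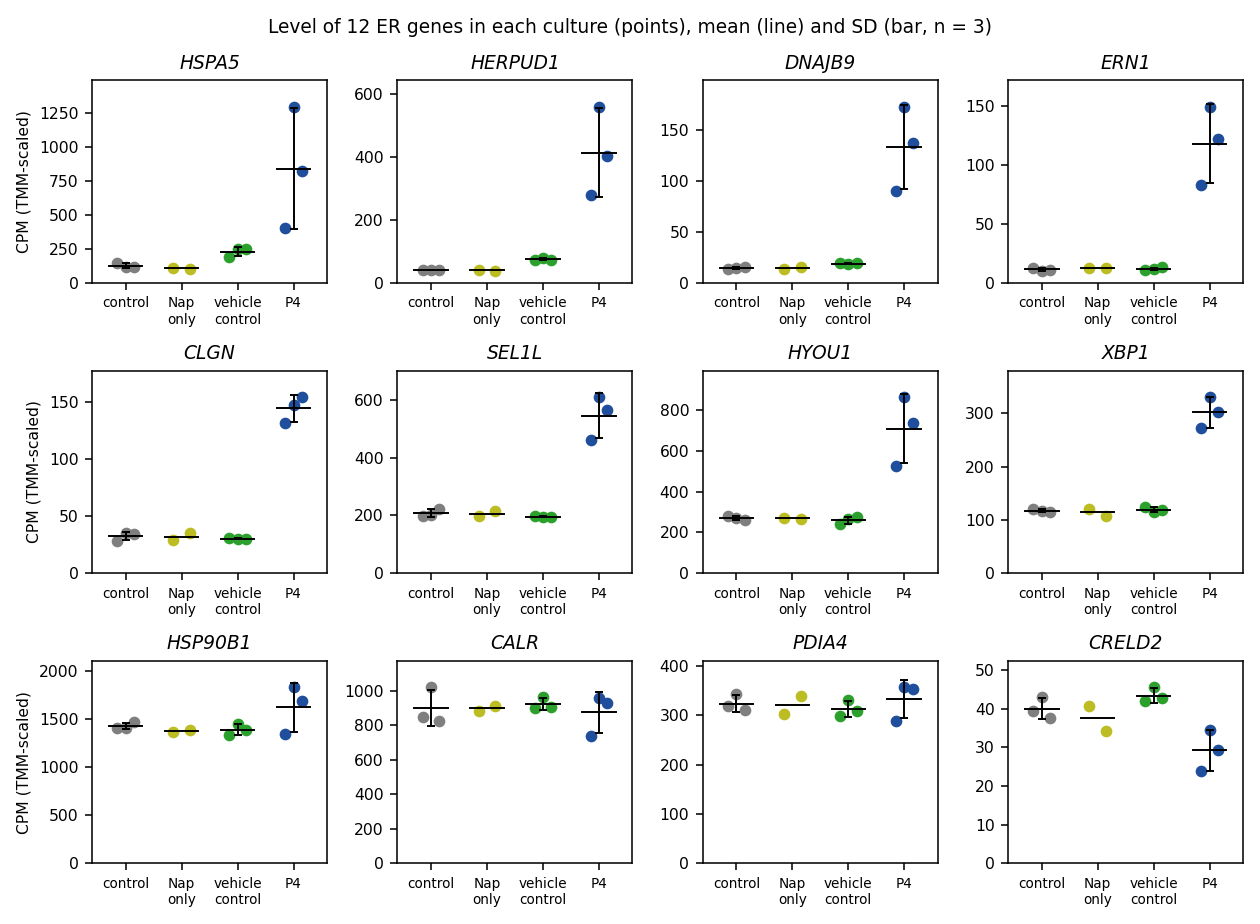
Level of 12 ER genes (y axis, TMM-scaled CPM, from 0) in each control, Nap only, vehicle control and P4 culture (x axis), with points for cultures, a line for the mean and a bar for the SD of groups of 3. HSPA5 and HERPUD1 were already higher in vehicle control than in control and higher again in P4, ERN1, CLGN and XBP1 passed the test in P4 and not in vehicle control, and HSP90B1, CALR and PDIA4 overlapped between groups.

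Of the 3 lectin chaperones, which hold glycoproteins during folding, 2 rose. CLGN (calmegin, the relative of calnexin best known from testis, chromosome 4 from 140388455 to 140427968) read 30.8, 29.7 and 29.6 CPM in vehicle control and 131, 147 and 154 CPM in P4. The 2 sets of values were far apart and tight within each group, with a log2 fold change of 2.25 (SE 0.08, adjusted p = 1.6e-09). CANX (calnexin, the membrane-bound lectin) went from 1129, 1154 and 1173 CPM to 1303, 1577 and 1499 CPM. Its log2 fold change was 0.32 (SE 0.07, adjusted p = 0.00202), but against control cultures it was 0.09 (adjusted p = 0.464). CALR (calreticulin, the luminal lectin) stood at 898, 962 and 903 CPM in vehicle control and at 739, 959 and 925 CPM in P4. The groups overlapped, and the log2 fold change was -0.09 (SE 0.09, adjusted p = 0.381).

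The 6 disulfide isomerases and oxidases changed little apart from 1 gene. ERO1B, an oxidase that recharges the isomerases, went from 21.2, 21.5 and 24.9 CPM in vehicle control to 40.8, 52.6 and 51.3 CPM in P4. The cultures did not overlap, and its log2 fold change was 1.07 (SE 0.11, adjusted p = 7.9e-06). The related ERO1A read 97.1, 96.9 and 98.4 CPM in vehicle control and 112, 114 and 111 CPM in P4, a log2 fold change of 0.19 (SE 0.06, adjusted p = 0.0207). PDIA3 (ERp57, the isomerase that works with the lectin chaperones) read 245, 268 and 256 CPM and 267, 308 and 307 CPM. P4 replicate 1 fell among the vehicle controls, and the log2 fold change was 0.18 (SE 0.07, adjusted p = 0.0455). Leaving out vehicle control replicate 2 or 3 or P4 replicate 3 ended both calls, which for PDIA3 also ended without vehicle control replicate 1 or P4 replicate 2. Against control cultures neither ERO1A (0.04, adjusted p = 0.703) nor PDIA3 (0.04, adjusted p = 0.742) passed the test. The isomerases PDIA4, PDIA6 and P4HB had log2 fold changes of 0.07, 0.14 and 0.08 (SE 0.08, 0.07 and 0.07) and did not pass. PDIA3 and PDIA6 share 14.8% and 25.2% of their exonic bases with genes on the opposite strand, and since the strand setting of the counting is not given in the sources used here, such counts are uncertain.

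Of 3 small luminal or secreted factors that are usual targets of the response, 1 fell and 2 did not pass the test. CRELD2, a secreted protein of the ER, read 41.9, 45.5 and 42.6 CPM in vehicle control and 23.8, 34.4 and 29.3 CPM in P4. Every P4 culture was below every vehicle control, with a log2 fold change of -0.59 (SE 0.12, adjusted p = 9.6e-04). MANF, a secreted survival factor, had a log2 fold change of 0.36 (SE 0.18, adjusted p = 0.122), and its P4 cultures spread from 50.3 to 94.0 CPM around the vehicle controls at 54.2 to 57.1 CPM. MANF did pass as higher with DESeq2 (0.39, adjusted p = 0.0441), with no filter (0.38, adjusted p = 0.00125), with the replicate number as a block (0.35, adjusted p = 0.0353) and without P4 replicate 1 (0.56, adjusted p = 4.7e-05). SDF2L1, a partner of ER J-domain proteins, had 0.14 (SE 0.22, adjusted p = 0.61).

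In ER-associated degradation, 8 of 11 genes rose, 1 fell and 2 did not pass the test, with a median log2 fold change of 0.71. HERPUD1, a membrane scaffold of the degradation complex (ENSG00000051108.15, chromosome 16 from 56932048 to 56944863), read 73.7, 79.3 and 72.9 CPM in vehicle control and 279, 561 and 403 CPM in P4. The lowest P4 culture was well above the highest vehicle control, and the log2 fold change was 2.44 (SE 0.26, adjusted p = 3.9e-04). SEL1L, the adaptor that hands misfolded proteins to the ubiquitin ligase SYVN1, went from 197, 195 and 193 CPM to 461, 610 and 566 CPM. The vehicle controls differed by 4 CPM, and the log2 fold change was 1.47 (SE 0.09, adjusted p = 9.2e-08). SYVN1 (HRD1), which shares 7.2% of its exonic bases with the gene FAU on the same strand, read 27.9, 26.2 and 32.7 CPM in vehicle control and 38.1, 67.8 and 54.6 CPM in P4. The groups did not overlap, and the log2 fold change was 0.87 (SE 0.18, adjusted p = 0.0024).

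The channel protein DERL1 and the membrane protein SELENOS, which recruits the extracting ATPase, rose by 0.86 and 0.71 on the log2 scale. The mannose-trimming factor EDEM1 rose by 0.58 and the lectin OS9 by 0.32. EDEM2 rose by 0.24 (SE 0.09, adjusted p = 0.048) and lost its call under 10 of 14 alternative settings, among them leaving out replicate 2 or 3 of either group. EDEM3 had -0.30 (SE 0.10, adjusted p = 0.0191) and read 106, 79.3 and 92.8 CPM in P4 against 115, 115 and 108 CPM in vehicle control, a call that was lost without vehicle control replicate 1 or 2 or P4 replicate 3. The 3 EDEM genes thus did not move one way. DERL2 had a log2 fold change of 0.11 (SE 0.09, adjusted p = 0.36). DERL3 was near the limit of detection at 1.72, 1.55 and 1.37 CPM in vehicle control and 1.06, 5.17 and 2.90 CPM in P4, with a log2 fold change of 1.01 (SE 0.45, adjusted p = 0.0799). P4 replicate 1 lay below all vehicle controls in DERL3, without it the gene passed at 1.38 (adjusted p = 0.0003), as it did with no filter, all 4 groups in the fit, the block or control as the reference, and 77.0% of the exonic bases of that gene are shared with SMARCB1 on the opposite strand.

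The sensors and their proteases held the largest single change, with 4 of 7 genes higher, 1 lower and 2 that did not pass the test. ERN1 (IRE1, the sensor kinase and endonuclease that splices XBP1 mRNA, chromosome 17 from 64039142 to 64130819) was the lowest of the 4 sensor genes per exonic length in vehicle control, at 1.10 RPKM (CPM divided by the exonic length in kilobases). It read 10.9, 11.8 and 13.0 CPM in vehicle control and 82.5, 149 and 122 CPM in P4. No P4 culture came near a vehicle control, and the means were 11.9 ± 1.06 and 118 ± 33.6 CPM (SD, n = 3 each). ERN1 had a log2 fold change of 3.27 (SE 0.21, adjusted p = 1.8e-06). XBP1, the transcription factor that ERN1 activates by splicing, went from 124, 115 and 118 CPM to 273, 331 and 302 CPM. The groups lay apart with a log2 fold change of 1.33 (SE 0.08, adjusted p = 5.4e-08), and gene counts do not show which share of XBP1 was spliced.

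ATF6, the sensor that is cut in the Golgi and then acts as a transcription factor, read 64.3, 66.5 and 67.1 CPM in vehicle control and 146, 176 and 166 CPM in P4. Again there was no overlap, and the log2 fold change was 1.28 (SE 0.08, adjusted p = 9.2e-08). EIF2AK3 (PERK, the sensor kinase that slows translation) rose by 0.87 (SE 0.11, adjusted p = 4.1e-05), and 14.4% of its exonic bases lie on another gene. ATF6B, the close relative of ATF6, had -0.27 (SE 0.10, adjusted p = 0.0369), with P4 cultures at 25.7, 21.9 and 23.2 CPM just under the vehicle controls at 26.0, 29.4 and 28.0 CPM. Its call was lost under 8 of 14 alternative settings, among them DESeq2, control as the reference and leaving out replicate 2 or 3 of either group. The site-1 and site-2 proteases that cut ATF6 did not pass the test, with log2 fold changes of 0.04 for MBTPS1 (SE 0.07) and -0.10 for MBTPS2 (SE 0.12).

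Neither translocon gene passed. SEC61A1, the channel subunit, had a log2 fold change of 0.10 (SE 0.08, adjusted p = 0.28) and SEC61B, the small subunit, 0.19 (SE 0.08, adjusted p = 0.0733). SEC61B read 36.0, 39.7 and 36.5 CPM in vehicle control, 42.0, 45.4 and 42.4 CPM in P4, and 53.5, 52.1 and 45.5 CPM in control. P4 thus lay above the vehicle controls and below the controls, and the direction for SEC61B turned with the reference: against control its log2 fold change was -0.25 (adjusted p = 0.0407). MBTPS2, which shares 12.2% of its exonic bases with the gene YY2 on the same strand so that its counts are uncertain, turned the other way, to 0.33 (adjusted p = 0.0291) against control.

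Ranked by level in control cultures, the 10 highest genes held none of the larger changes. Per exonic length, the 39 genes in control cultures ranged up to 331 RPKM for CALR, followed by HSP90B1 at 304, CANX at 216, P4HB at 129 and PDIA6 at 102 RPKM. Of the 10 genes highest in control, 3 rose and none fell under P4. Their largest log2 fold change was 0.32 and their median 0.16. Among the other 29 genes, 20 rose and 3 fell, 12 had a log2 fold change above 1 (DERL3, which did not pass the test, included), and the median was 0.86. This depends on the group used for the ranking: in vehicle control, the reference of the fold change, HSPA5 ranked 9 of 39, so that the 10 highest genes there include a log2 fold change of 1.85. HSPA5, at 58.6 RPKM in vehicle control, reached 215 RPKM in P4, beside 345 RPKM for HSP90B1 and 322 RPKM for CALR in the same cultures.

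**Figure D3:**
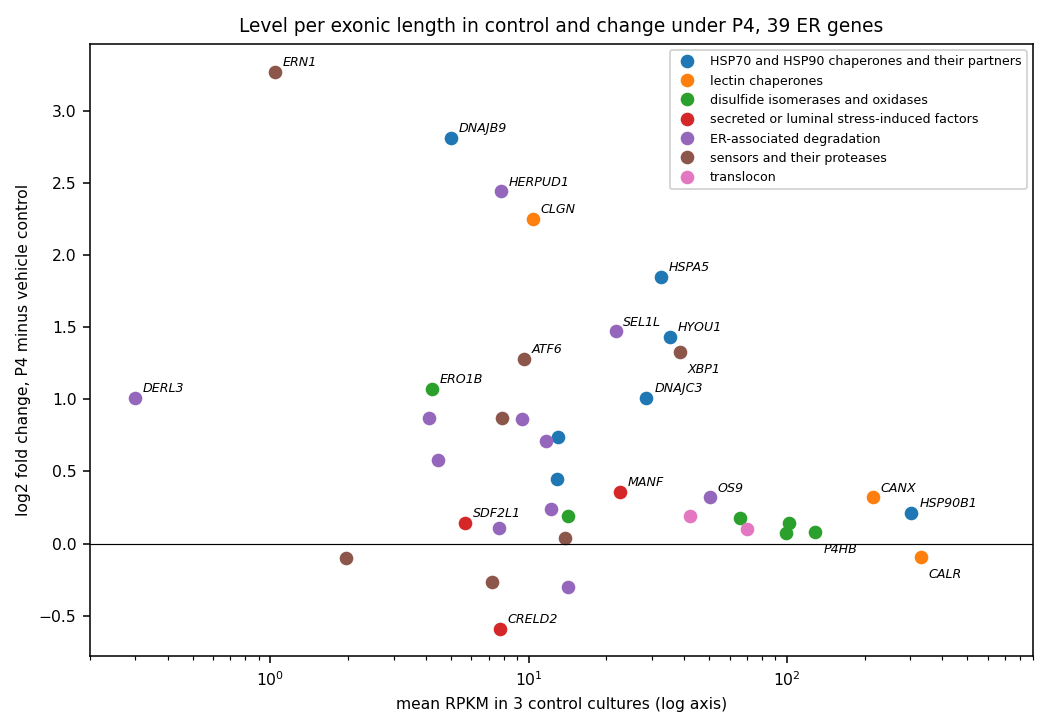
Mean level in the 3 control cultures (x axis, RPKM, log axis) and log2 fold change of P4 against vehicle control (y axis) for the 39 ER genes, coloured by role. The 10 genes with the highest level in control all lie at or under 0.32 (ranked in vehicle control, HSPA5 at 1.85 is among the highest 10), while ERN1, DNAJB9, HERPUD1 and CLGN lie above 2.

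Against Nap only, which by the titles shares the Nap part with the P4 cultures, 19 of the 39 genes were higher in P4, 3 were lower and 17 did not pass the test. Over all 16987 genes tested there, 49.7% were called, 24.8% as higher and 24.9% as lower. The median log2 fold change was 0.50, beside -0.01 over all genes. The same P4 cultures enter both P4 comparisons, so that the values stand side by side and are not independent. Nap only titles name no ethanol, so that if the P4 cultures received it, this comparison differs in ethanol as well as in progesterone. CLGN had a log2 fold change of 2.15 (SE 0.12, adjusted p = 2.3e-07), XBP1 of 1.37 (SE 0.10, adjusted p = 1.9e-06) and SEL1L of 1.38 (SE 0.11, adjusted p = 4.0e-06). For HSPA5 it was 2.95 (SE 0.62, adjusted p = 0.0256) and for HERPUD1 3.35 (SE 0.32, adjusted p = 3.1e-04). The HSPA5 call was lost without Nap only replicate 2 (adjusted p = 0.063), P4 replicate 2 (adjusted p = 0.0592) or P4 replicate 3 (adjusted p = 0.0867). The 3 lower genes were ATF6B at -0.35 (adjusted p = 0.0361), CRELD2 at -0.39 (adjusted p = 0.039) and EDEM3 at -0.30 (adjusted p = 0.0484). None of these 3 passed with DESeq2, without Nap only replicate 2 or without P4 replicate 3, and 1 passed without Nap only replicate 1 or P4 replicate 2.

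Against control, 5 of the 39 genes were higher in vehicle control, 3 were lower and 31 did not pass the test. These 8 calls among 39 genes were no larger a share than that over all 16673 genes tested, of which 22.6% were called, 11.9% as higher and 10.7% as lower. HERPUD1 read 40.5, 40.2 and 39.9 CPM in control, 41.2 and 38.1 CPM in Nap only, and 73.7, 79.3 and 72.9 CPM in vehicle control. Control and Nap only cultures were alike within 4 CPM, and the log2 fold change of vehicle control was 0.91 (SE 0.08, adjusted p = 2.0e-08). HSPA5 read 148, 114 and 119 CPM in control, 111 and 103 CPM in Nap only, and 191, 247 and 250.0 CPM in vehicle control. Every vehicle control was above every control, with a log2 fold change of 0.86 (SE 0.11, adjusted p = 3.2e-04). MBTPS2 was higher by 0.44 (adjusted p = 0.00732), DNAJB9 by 0.41 (adjusted p = 0.011) and SYVN1 by 0.35 (adjusted p = 0.0188). Without vehicle control replicate 3 these last 3 genes did not pass, nor did SYVN1 without control replicate 3.

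In the other direction, SEC61B had a log2 fold change of -0.43 (SE 0.09, adjusted p = 0.00141), DNAJC10 of -0.24 (SE 0.08, adjusted p = 0.0295) and CANX of -0.22 (SE 0.07, adjusted p = 0.0339). The calls of DNAJC10 and CANX were lost without control replicate 3 or any 1 of the vehicle controls, and that of CANX also without control replicate 1. DNAJC10 and CANX, lower in vehicle control than in control, were among the genes higher in P4 than in vehicle control, and since both comparisons use the vehicle controls their values are not independent. Measured from control, DNAJC10 in P4 had a log2 fold change of 0.20 (adjusted p = 0.0941), while HSPA5 had 2.70 (adjusted p = 0.0107) and HERPUD1 3.33 (adjusted p = 1.5e-05). ERN1 (0.09), CLGN (-0.12), XBP1 (0.02) and SEL1L (-0.09) did not pass the test in vehicle control. With the spread estimated over all 4 groups, the genes higher in vehicle control numbered 2, and HSPA5 (adjusted p = 0.177), DNAJB9 (adjusted p = 0.254) and SYVN1 (adjusted p = 0.157) did not pass. Without vehicle control replicate 3 the genes higher also numbered 2, HSPA5 among them, and the genes lower numbered 1 without control replicate 3 or without any 1 of the vehicle controls.

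In Nap only against control no gene of the 39 and none of 17166 genes passed edgeR's test (0%), 217 genes (1.26%) had an unadjusted p under 0.05, and DESeq2 called 1 gene. Among the 39, only HSPA5 had an unadjusted p under 0.05, with a log2 fold change of -0.25 (SE 0.11). The median of the 39 was -0.01 and the range -0.25 to 0.37. With 2 Nap only cultures, a small change could go undetected.

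A further 10 lists of ER and Golgi genes, 133 genes in all, were read beside the 39. Of 129 tested in P4 against vehicle control, 50 were higher and 21 lower, with a median log2 fold change of 0.09. The list called the PERK and ATF4 arm, named for the branch that can follow EIF2AK3, had 9 of 10 genes higher, none lower and a median of 1.82. The activity of EIF2AK3 was not measured, and whether these genes rose through it was not tested. TRIB3, a pseudokinase target of this arm, read 18.2, 17.2 and 18.5 CPM in vehicle control and 314, 403 and 388 CPM in P4. The groups were far apart, with a log2 fold change of 4.34 (SE 0.10, adjusted p = 1.1e-10). SESN2, a stress-induced sestrin, had 2.03 (SE 0.08, adjusted p = 2.0e-09). EIF2S1, the translation factor subunit that PERK phosphorylates, had 0.03 (SE 0.07) and did not pass. In vehicle control against control, 11.9% of all genes tested were higher and 10.7% lower. There, 5 of the 10 genes of this arm were higher and 1 was lower. They were named after their values were seen: ATF3 at 3.03, PPP1R15A at 1.37, DDIT3 at 0.94, ASNS at 0.71 and CHAC1 at 0.56, with EIF2S1 at -0.28.

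The other lists are read against the 26.6% of all genes tested that were higher and the 26.5% that were lower. Among other ERAD genes 9 of 25 were higher and 4 lower, with the ubiquitin-conjugating enzyme UBE2J1 at 0.62, and the ATPase VCP at -0.78 with its cofactor UFD1 at -0.27. In N-glycosylation and glycan trimming 5 of 17 were higher and 2 lower, with STT3B at 0.28, UGGT2 at 0.43, MOGS at -0.56 and MAN1B1 at -0.19. Other translocon and signal peptidase genes had 4 of 15 higher and 2 lower, with TRAM1 at 0.42, SSR3 at 0.37, TRAM2 at -0.67 and SPCS3 at -0.48. Other disulfide and prolyl isomerases had 7 of 22 tested higher and 4 lower, with ERP44 at 0.67, TXNDC12 at 0.89, TMX4 at -0.70 and FKBP11 at -1.01. The HSP70 partners had 3 of 7 tested higher and 1 lower, with DNAJC1 at 1.14, DNAJB14 at 0.38 and SDF2 at -0.82.

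Of the 3 tested factors of the CREB3 family, 1 was higher, CREB3 at 0.65. Among 8 ER-phagy receptors 3 were higher and none lower, led by CCPG1 at 1.90 and CALCOCO1 at 0.47. The ER calcium genes were split, with 4 of 12 higher and 5 lower, CALU at 0.68 and ITPR3 at 0.57 against the pumps ATP2A3 at -0.80 and ATP2A1 at -1.45. These pumps were low in vehicle control, at 15.3 and 2.99 CPM. The pump ATP2A2, at 548 CPM there, had a log2 fold change of only -0.19. Golgi genes, kept as a list outside the ER, had 5 of 10 higher and 3 lower, with MAN2A1 at 0.41, GOLGA2 at 1.02, MGAT1 at -0.54 and GOLIM4 at -0.34.

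**Figure D4:**
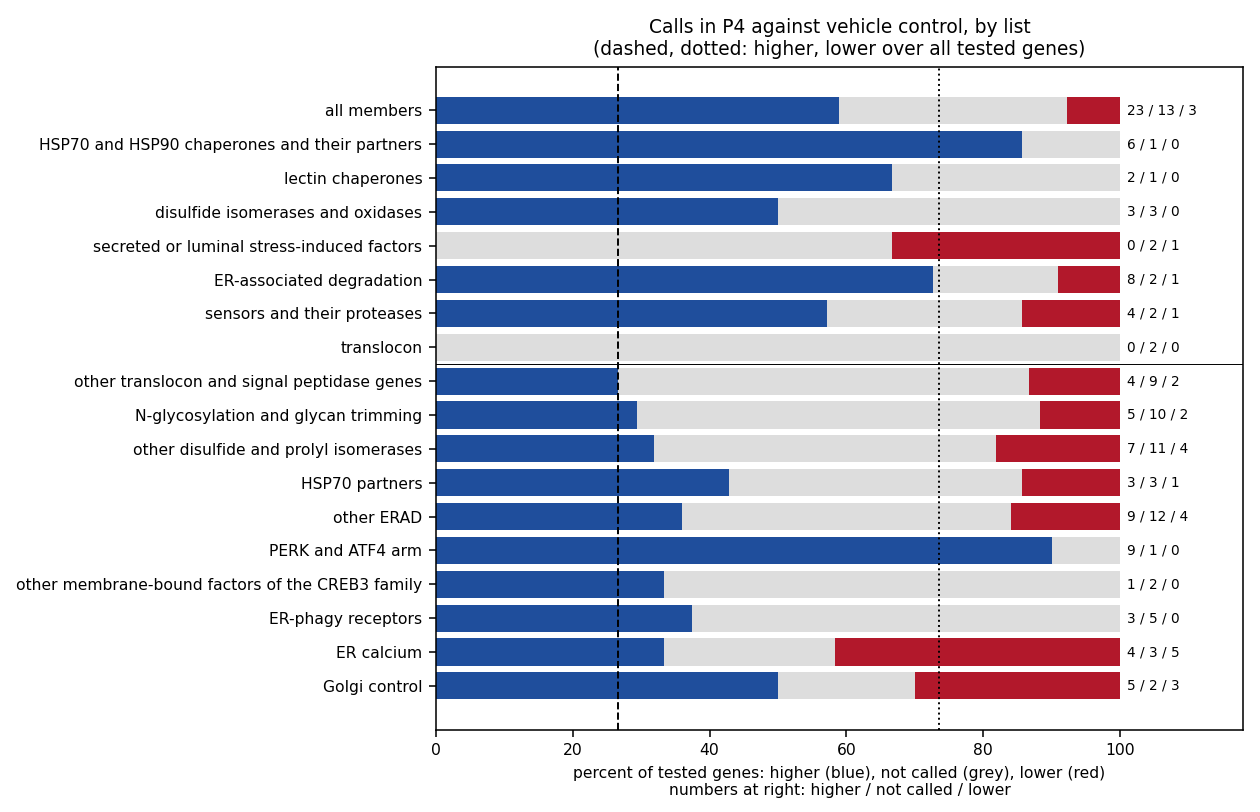
Percent of tested genes (x axis) that were higher, not called or lower in P4 against vehicle control, for the 39 ER genes, their 7 role lists and 10 further lists (y axis), with counts at the right. The dashed and dotted lines mark the shares higher and lower over all genes, 26.6% and 26.5%. The PERK and ATF4 arm with 9 of 10 and the HSP70 and HSP90 chaperones with 6 of 7 had the largest shares of higher genes.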

How the data were processed

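RNA of 17 Ishikawa cultures was sequenced from stranded total RNA libraries. The authors trimmed reads with Cutadapt, aligned them with Subread and deposited raw read counts per gene from featureCounts with GENCODE 31. Tool versions are not given in the sources used here. Per the labels 11 libraries had a group, and 6 with conflicting labels were left out of comparisons. Gene names, positions and exonic lengths were taken from GENCODE 29 on GRCh38, which names 58587 of the 60662 genes, and promoters from RefSeq tables (GRCh38.p14).

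From the counts, edgeR 4.0.16 (R 4.3.3) was used with TMM scaling, filterByExpr (minimum count 10), robust quasi-likelihood fits of only the groups compared, and Benjamini-Hochberg adjustment over all genes tested. A gene was called at an adjusted p under 0.05, and "rose" and "fell" refer to calls. Printed CPM values share 1 TMM scaling over all 17 libraries, and RPKM is CPM per kilobase of exon. The SE is the absolute log2 fold change over the square root of F. Alternatives were DESeq2 1.42.0, RLE and upper-quartile scaling, no filter, a minimum of 10 counts per library, a fit over all 4 groups, a block for the replicate number, control as the reference, and each culture left out in turn. Tables and figures were made with Python 3.11.15, pandas 2.3.3 and matplotlib 3.10.9.

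Counts for P4 against vehicle control were simulated with 200 genes changed and the same dispersion (spread beyond counting error) of 0.02 for every gene. Of 16510 genes tested, 82 of 96 changed by 1 log2 unit (85.4%) and 96 of 96 changed by 2 were recovered with the right sign. A further 18 calls were false. The data had a common dispersion of 0.00635 and 53% of genes called, so the simulation does not give the error rate of the calls above. The 39 genes, their lists and the tests were chosen with earlier results of these data known. In each role list, values of every culture are given for up to 3 called genes with the largest change under P4, and each gene not called there is named. In the other comparisons up to 3 called genes of smallest adjusted p per direction are named, and in each further list up to 2. Other genes were named after their values were seen. The labels call the replicates biological and do not say how the cultures were separated, so that p-values measure the spread between these cultures. Reads carry no molecular identifiers.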

Additional observations from a re-analysis of the deposited data

Results flagged for a closer look

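In the 6 libraries with contradictory labels, which entered no comparison, 11 of the 39 ER genes reached at least 2 times the highest level of the 8 control, Nap only and vehicle control cultures in at least 1 library. The share of all genes that did so was not counted, so that 11 of 39 cannot be called particular to these genes. The highest level among the 6 libraries was 1212 CPM for HSPA5, 846 CPM for HYOU1, 158 CPM for DNAJB9, 356 CPM for DNAJC3, 177 CPM for CLGN and 53.6 CPM for ERO1B. For the degradation genes it was 490.0 CPM for HERPUD1 and 590.0 CPM for SEL1L. For the sensors and their targets it was 331 CPM for XBP1, 175 CPM for ATF6 and 136 CPM for ERN1. No difference between these libraries and any group was tested, because their titles and their column names give opposite conditions.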

How the results depend on the processing

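In P4 against vehicle control, 18 of the 26 called genes kept their call and direction under all 14 alternatives, and 8 (HSPA5, DNAJC10, CANX, PDIA3, ERO1A, EDEM2, EDEM3 and ATF6B) lost it under at least 1. The number higher was 20 to 25 under the other settings and 19 to 32 with each culture left out, the highest without P4 replicate 1, when HSP90B1, PDIA4, PDIA6, P4HB, MANF, DERL2, DERL3, SEC61A1 and SEC61B were also called. The number lower was 1 to 3 with each culture left out. With control as the reference MBTPS2 turned to 0.33 and SEC61B to -0.25. Upper-quartile scaling moved the median of all genes to -0.10 and gave 3603 higher and 5244 lower genes, against 4397 and 4377, with 20 of the 39 genes higher. In P4 against Nap only, the members lower numbered 0 under DESeq2, 0 under the replicate block, and 0 to 3 with each culture left out, the members higher 16 to 26 and all genes lower 2601 (without Nap only replicate 2) to 4872. In vehicle control against control, 2 members were higher with all 4 groups in the fit and 2 to 6 with each culture left out, 1 to 4 were lower, and all genes numbered 1097 to 2009 higher and 811 to 1986 lower, both lowest without vehicle control replicate 3. DESeq2 gave 1223 higher genes. In Nap only against control, DESeq2 and the fit of all 4 groups gave 1 gene higher, no filter 1 higher and 2 lower, and leaving out each culture 0 to 3 higher and 0 to 2 lower. Where the cause of a lost or gained call is not the smaller number of cultures, the cause was not tested. The deviations of same-numbered cultures correlated at 0.04, 0.04 and -0.02 for P4 and vehicle control, 0.07, 0.08 and -0.01 for vehicle control and control, -0.04 and -0.09 for P4 and Nap only, and 0.25 and 0.32 for Nap only and control. No comparison with 3 pairs had every correlation above 0.1 and the labels tie the numbers to no shared batch, so the number was not taken as a pairing. With it as a block, 25 members were higher and 3 lower in P4 against vehicle control, 18 and 0 against Nap only, 5 and 2 in vehicle control, and in Nap only 1 member (HSPA5 at -0.28), 4 genes higher and 38 lower. Depth limits DERL3, a gene of few counts.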

Other observations

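In the genes given here, the 6 libraries that no comparison used lay apart by column name. These genes were picked after their values were seen. HSPA5 read 605, 843 and 1212 CPM in the libraries whose count column is named PSAT1_P4 (titled PSAT1), and 138, 116 and 120.0 CPM in those whose column is named PSAT1 (titled PSAT1_P4). HERPUD1 read 352, 481 and 490.0 CPM in the first set and 37.7, 34.8 and 38.3 CPM in the second. ERN1, the sensor with the largest change under P4, read 114, 136 and 136 CPM in the first and 13.4, 12.8 and 12.6 CPM in the second. CRELD2, 1 of the 3 genes that were lower under P4, read 31.2, 33.2 and 31.5 CPM in the first and 39.1, 38.3 and 45.7 CPM in the second. The conditions of these libraries remain unassigned, and the values carry no test.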
